A study of Oryctolagus cuniculus with 12 samples.

Results

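Matricellular proteins are secreted into the extracellular matrix, where they act on cells and on the assembly of fibres more than they bear load themselves. A list of 9 genes, named matricellular proteins of the scar matrix, was chosen by symbol (FN1, POSTN, TNC, THBS1, THBS2, THBS4, SPARC, CTHRC1 and TGFBI). It includes fibronectin (FN1), which also forms fibrils. Of these genes, 8 of 9 had a row among the 29587 genes listed. CTHRC1 had none. All 8 rows had a mean of at least 1 FPKM (fragments counted per unit of gene length and of library size) and entered the test with 13287 genes in all.

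The data were bulk RNA-seq of full-thickness ear skin of wild-type rabbits (Oryctolagus cuniculus), with 3 samples in each of 4 groups. NS was normal ear skin with no treatment. HS was hypertrophic scar, the raised scar that formed after round full-thickness wounds were made on the ventral ear, and it also received no treatment. In the drug-loaded MNs group, each scar received 1 patch of separating microneedles, whose gelatin-based tips stay in the skin and carry a peptide prodrug of 5-fluorouracil. In the 5-Fu injection group, each scar was injected with 0.1 mL of 5-fluorouracil solution (120 µg). Both treatments were given on days 22, 29 and 36 after wounding, and tissue was taken 1 week after the third. Each group came from other rabbits, so a replicate number did not link animals across groups. Scars treated with microneedles without drug were not analysed here.

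These proteins have distinct roles. Fibronectin, encoded by FN1, is laid down early in a wound and forms the fibrils to which cells attach through integrins, and periostin (POSTN) and tenascin-C (TNC) join that matrix during repair. The thrombospondins THBS1, THBS2 and THBS4 bind matrix proteins and cell receptors, and THBS1 can also activate latent TGF-beta. TGFBI is a secreted integrin ligand induced by TGF-beta, and SPARC binds collagen.

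Sequencing depth was similar in all groups. Reads on genes, counted back from the FPKM values, ranged from 10521472 to 14043667 per sample, and 7 of the 8 rows were covered by 714 to 86789 reads in each sample. SPARC was the exception with 12 to 71 reads. Markers of keratinocytes, the epithelial cells of skin, were present in all groups, with a summed level of 2408 to 4037 FPKM in NS and 1404 to 2001 FPKM in HS over 7 matched genes. The 8 cartilage markers varied between samples from 556 to 5483 FPKM. Both extremes lay in the 5-Fu injection group, with 5483, 556 and 995 FPKM in replicates 1, 2 and 3. Replicate 2 of the 5-Fu injection group stood apart from the other samples of that group in the 8 rows and in fibroblast markers. It had the highest value of its group in 8 of 8 rows, and its 6 fibroblast markers summed to 26692 FPKM, against 4996 and 6671 FPKM in replicates 1 and 3. The number of rows called in each comparison with that group is therefore also given without it. Because it was picked by its high values in these rows, leaving it out was bound to lower the injected group means.

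FN1 had the highest FPKM of the 8 rows in 10 of 12 samples, and SPARC the lowest in all 12. FPKM is per unit length, so the rows can be ranked within a sample. In NS, FN1 made up 62.5%, 48.1% and 53.5% of the summed FPKM of the 8 rows. In HS its share was 15.4%, 26.2% and 30.4%, below every NS sample. THBS2 held 43.6% of the sum in HS replicate 1 but 15.4% in each of the other HS samples, and 2.2% to 4.6% in NS. Thus HS replicate 1 was a sample in which THBS2 exceeded FN1. The other sample without FN1 on top was drug-loaded MNs replicate 1, where TNC was highest by a small margin, at 381 against 378 FPKM. Together the reads of the 8 rows were 0.470% to 0.655% of all reads on genes in NS and 1.23% to 1.37% in HS. Scars under drug-loaded MNs held 0.592% to 1.02%, and injected scars 0.400% to 0.831%.

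**Figure D1:**
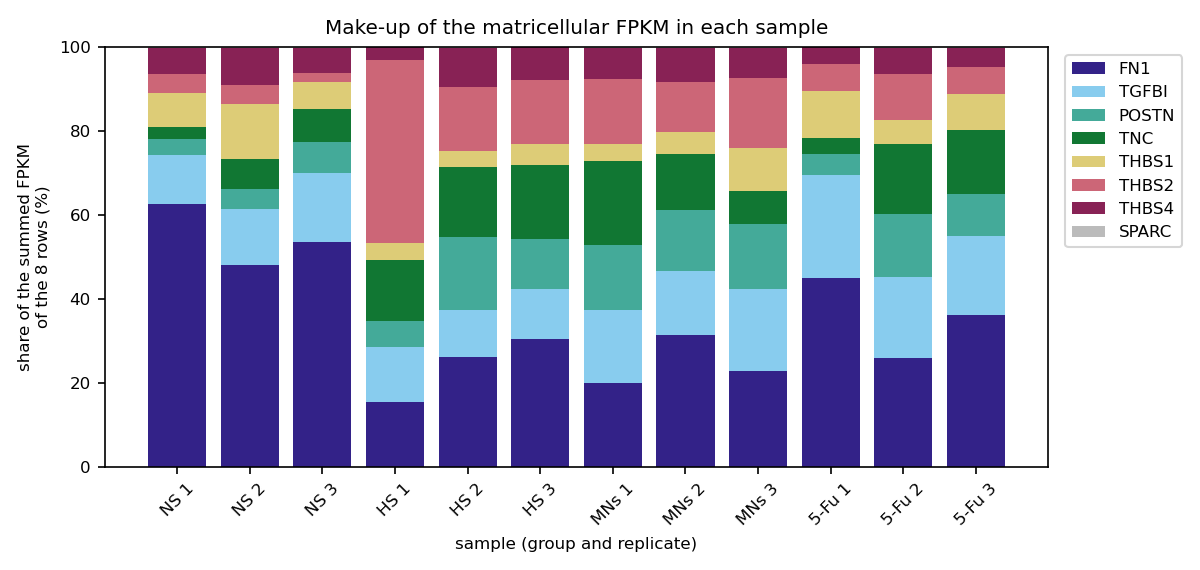
Stacked bars give the share (%) of the summed FPKM of the 8 rows that each gene held in each of the 12 samples, named by group and replicate (MNs are drug-loaded MNs, 5-Fu is 5-Fu injection). FN1 held 48.1% or more in the NS samples and 30.4% or less in the HS samples, and THBS2 reached 43.6% in HS replicate 1; no test was run on these shares.

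The first comparison, HS against NS, asked which of these genes differed between scar and normal ear skin. THBS2, TNC, POSTN and TGFBI rose in HS. With limma on log2(FPKM + 1), a gene was called when its Benjamini-Hochberg adjusted p was under 0.05 and its absolute log2 fold change above 1. By this rule 4 of 8 rows were called, all higher, while 5.00% of all tested genes were called and 3.53% were called higher. The median log2 fold change was 1.62 over the 8 rows and -0.01 over all tested genes. In 7 of 8 rows every HS value lay above every NS value, a pattern seen in 18.0% of all tested genes, and FN1 was the row that overlapped. In the SPARC row, which had few reads, the margin was narrow, at 2.82 FPKM in HS against 2.60 FPKM in NS. No row was called lower.

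THBS2 had the largest fold change of the 8. This thrombospondin is made by fibroblasts and influences collagen fibril assembly (row ENSOCUG00000005371, scaffold GL019051, 67338 to 94639, plus strand). Its FPKM was 36.6, 28.8 and 17.3 in NS and 1180, 404 and 416 in HS. The HS samples were all far above the NS samples, and the first HS sample was 2.88 times the mean of the other two. The log2 fold change was 4.42 (SE 0.54, adjusted p = 0.00139 by limma), and without HS replicate 1 it was 3.91 (adjusted p = 0.00546). By rank of FPKM among the 13287 tested genes, THBS2 was between 2496 and 4892 in NS and between 64 and 192 in HS.

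TNC, a large adhesion-modulating glycoprotein that is scarce in most resting adult tissue (ENSOCUG00000011500, scaffold GL018699, 12582949 to 12654754, plus strand), had FPKM values of 23.2, 44.6 and 63.0 in NS and 390, 432 and 479 in HS. The HS values were close to each other and far above NS. Its log2 fold change was 3.39 (SE 0.72, adjusted p = 0.0184). POSTN, which promotes collagen cross-linking (ENSOCUG00000011482, scaffold GL018719, 554696 to 588822, minus strand), had 32.3, 29.3 and 60.3 FPKM in NS against 172, 455 and 322 FPKM in HS, a log2 fold change of 2.90 (SE 0.60, adjusted p = 0.0155). Neither gene overlapped between the groups. Both calls were lost when single samples were left out, with fold changes that kept their sign. The fits concerned called 382 to 476 of 13287 tested genes, against 665 with every sample. For POSTN the adjusted p was 0.063 and 0.0529 without NS replicates 1 and 2, and 0.0605 and 0.0536 without HS replicates 2 and 3. For TNC it was 0.0782 without NS replicate 1, and 0.0535, 0.0561 and 0.06 without HS replicates 1, 2 and 3.

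TGFBI (ENSOCUG00000004928, chromosome 3, 18446613 to 18553561, plus strand) rose from 97.4, 82.7 and 132 FPKM in NS to 353, 294 and 319 FPKM in HS. This was a smaller change with less scatter. Its log2 fold change was 1.64 (SE 0.26, adjusted p = 0.00501), and the call held without each sample in turn, with adjusted p between 0.000931 and 0.0229. A gene annotated on the opposite strand within TGFBI, LECT2, had a mean of 0.12 FPKM.

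The other rows did not pass. THBS4, a thrombospondin of tendon and muscle matrix (ENSOCUG00000009244, chromosome 11, 747027 to 792208, plus strand), had 51.0, 53.9 and 49.4 FPKM in NS and 78.3, 243 and 208 FPKM in HS. NS varied by 1.09 times between its extremes and HS by 3.11 times, with HS replicate 1 the low value. The log2 fold change of 1.60 (SE 0.48) had an adjusted p of 0.0679. Without HS replicate 1 it was 2.11 with an adjusted p of 0.0271, and without 5-Fu injection replicate 2, which enters only through the shared estimate of spread, the adjusted p was 0.0237.

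For THBS1 (ENSOCUG00000003792, chromosome 17, 32568969 to 32583143, minus strand) the NS values were 68.7, 80.8 and 50.1 FPKM and the HS values 113, 101 and 133 FPKM. The groups did not overlap, but the log2 fold change was 0.81 (SE 0.23, adjusted p = 0.0563), below the fold threshold. FSIP1, on the opposite strand of the THBS1 locus, had a mean of 0.0912 FPKM. FN1 (ENSOCUG00000010104, chromosome 7, 156703390 to 156771395, minus strand) had 519, 299 and 430 FPKM in NS and 415, 687 and 823 FPKM in HS. One HS sample lay within the NS range. Its log2 fold change was 0.60 (95% interval -0.06 to 1.27, adjusted p = 0.26), so this most abundant member was the one whose groups overlapped.

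The scaling between samples shifted all fold changes. When FPKM was rescaled to total reads on genes, the median log2 fold change of all tested genes in HS against NS moved from -0.01 to -0.33, and calls went from 469 higher and 196 lower to 311 higher and 748 lower. The rows moved down with it, for example TGFBI to 1.28, THBS1 to 0.45 and FN1 to 0.24, and POSTN, TNC, THBS2 and TGFBI were still called.

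**Figure D2:**
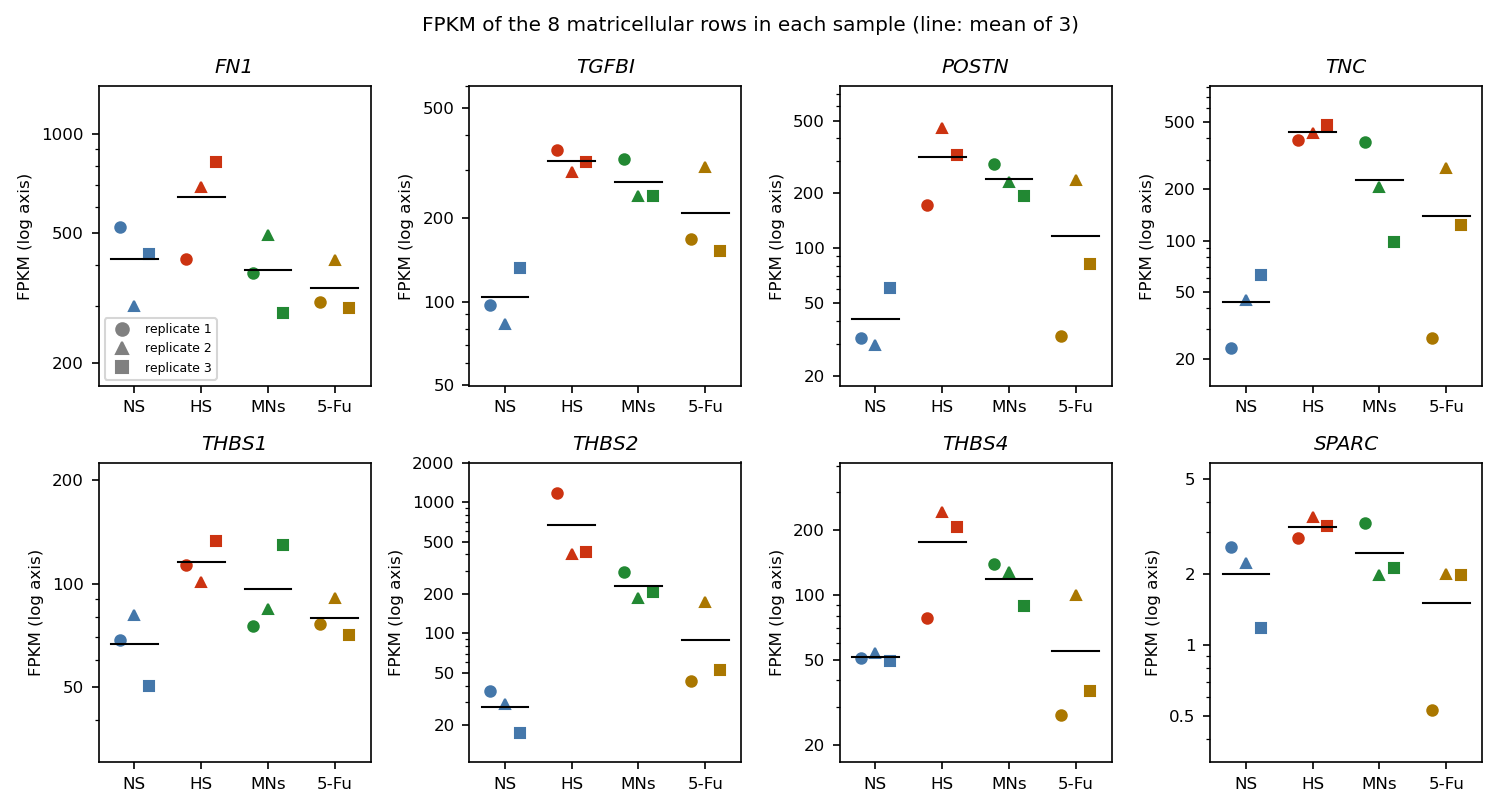
Each panel gives the FPKM of a gene (log axis) in the 3 replicates of NS, HS, drug-loaded MNs (MNs) and 5-Fu injection (5-Fu), with symbols for the replicate and a line at the group mean. HS lies above NS without overlap in every panel but FN1, HS replicate 1 is the low HS value for POSTN and THBS4 but the high one for THBS2, and 5-Fu injection replicate 2 is the highest of its group in 8 of 8 panels.

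The row named SPARC said little about that gene. SPARC (ENSOCUG00000012120, chromosome 3, 33118284 to 33194803, minus strand) had 2.60, 2.21 and 1.18 FPKM in NS, 2.82, 3.46 and 3.16 FPKM in HS, 3.27, 1.97 and 2.11 FPKM with drug-loaded MNs, and 0.532, 1.99 and 1.97 FPKM with 5-Fu injection. With so few reads the counting error was wide: the 12 reads of the lowest sample allowed 0.275 to 0.929 FPKM (exact 95% Poisson interval, which covers counting error only). A row named ATOX1 (ENSOCUG00000038763, 33117791 to 33199104) spanned it on the same strand, and its deposited description was that of SPARC. That row held nearly all reads of the locus, and the SPARC row 0.0194% to 0.123%, so the assignment of reads between these rows is uncertain. ATOX1 is otherwise the name of a copper chaperone gene.

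The ATOX1-named row had 2985, 1756 and 1413 FPKM in NS and 5707, 5940 and 6894 FPKM in HS. It ranked between 5 and 57 of the tested genes in every sample. Its log2 fold change in HS against NS was 1.66 (SE 0.34, adjusted p = 0.0144), and it was called, whereas the SPARC row, at 0.50 (SE 0.29, adjusted p = 0.347), was not. In the drug-loaded MNs group the ATOX1-named row had 4371, 4460 and 5307 FPKM, all below HS, and in the 5-Fu injection group 2662, 5126 and 2656 FPKM, also all below HS. Neither difference from HS passed, at log2 fold changes of -0.39 (adjusted p = 0.791) and -0.90 (adjusted p = 0.128).

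**Figure D3:**
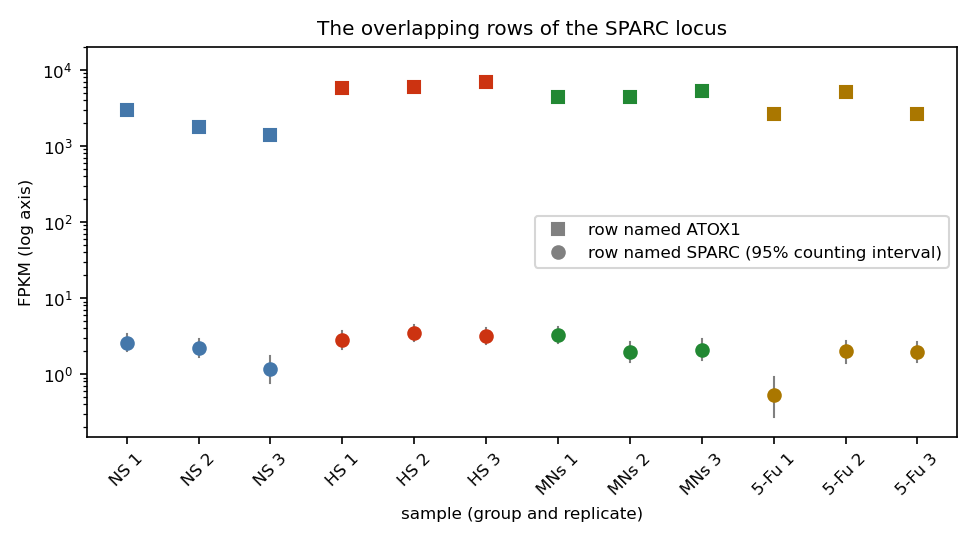
The FPKM (log axis) of the rows named ATOX1 (squares) and SPARC (circles, with exact 95% Poisson intervals of their read counts) is given in each of the 12 samples, coloured by group. The ATOX1-named row lies between 1413 and 6894 FPKM and the SPARC row between 0.532 and 3.46 FPKM.

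Drug-loaded MNs against HS asked whether the microneedle treatment lowered these genes in scar. None of the 8 rows passed the test, although all 8 fold changes were below 0. Of all tested genes 0.00753% were called, and none was called lower. At an unadjusted p under 0.05, limma counted 1183 genes, among them THBS2 and FN1. The median log2 fold change was -0.38 over the 8 rows against -0.02 over all tested genes. In TNC and THBS2 every treated sample lay below every HS sample, 2 of 8 rows against 10.3% of all tested genes.

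THBS2 had 295, 187 and 207 FPKM with drug-loaded MNs, all under the lowest HS value of 404 FPKM. Its log2 fold change was -1.37 (95% interval -2.55 to -0.19, adjusted p = 0.506). TNC had 381, 206 and 97.8 FPKM with the treatment, spread over 3.90 times, and the highest of them was just under the lowest HS value of 390 FPKM. The log2 fold change for TNC was -1.13 (95% interval -2.71 to 0.46, adjusted p = 0.681). For FN1 the treated values of 378, 492 and 285 FPKM overlapped HS, with a log2 fold change of -0.72 (95% interval -1.38 to -0.05, adjusted p = 0.534).

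The values of POSTN with drug-loaded MNs, 291, 230 and 193 FPKM, lay within the HS range, at a log2 fold change of -0.32 (95% interval -1.63 to 0.99). TGFBI was 328, 240 and 240 FPKM, at -0.27 (-0.85 to 0.31). THBS4, at 139, 128 and 89.0 FPKM, also overlapped HS (-0.44, -1.49 to 0.61). These intervals reach from a decrease to an increase. For THBS1, with 75.4, 84.3 and 129 FPKM, replicate 3 was as high as the HS samples and the others were below them (-0.29, -0.79 to 0.21).

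5-Fu injection against HS asked the same of the injected drug. THBS2 fell and was the 1 row of 8 that passed, while 2.29% of all tested genes were called and 1.78% were called lower. All 8 fold changes were below 0, with a median of -1.31 against 0.02 over all tested genes. In 5 of 8 rows (FN1, TNC, THBS1, THBS2 and SPARC) every injected sample was below every HS sample, which held for 16.4% of all tested genes. For FN1 the margin was small, at 413 FPKM injected against 415 FPKM in HS, and the SPARC row had few reads. Drug-loaded MNs against HS and 5-Fu injection against HS share the HS samples, so their common sign is not independent.

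THBS2 had 43.6, 173 and 52.6 FPKM after 5-Fu injection, and replicate 2 was the high value. The log2 fold change from HS was -2.97 (SE 0.54, adjusted p = 0.0267 by limma). The call was lost without HS replicates 1, 2 and 3 (adjusted p = 0.0706, 0.0562 and 0.0828), without 5-Fu injection replicates 1 and 3 (0.0663 and 0.099), and when only the compared groups were fitted (0.0986). In those fits few genes of any kind passed, between 0 and 16 of 13287.

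TNC had 26.8, 267 and 123 FPKM after injection, POSTN 32.9, 236 and 81.6 FPKM, and THBS4 27.7, 100 and 35.9 FPKM. In each, replicate 2 was well above the other injected samples, by 3.58, 4.12 and 3.16 times their mean. The log2 fold changes from HS were -2.15 for TNC (adjusted p = 0.0978), -1.76 for POSTN (0.101) and -1.75 for THBS4 (0.0608). TGFBI, at 168, 305 and 152 FPKM, had -0.69 (adjusted p = 0.132).

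Leaving out 5-Fu injection replicate 2 changed the count most. From the remaining samples 5 of 8 rows were called lower, and of all 13287 tested genes 500 were called lower, against 236 with every sample. Those rows were THBS2 at -3.58 (adjusted p = 0.0034), TNC at -2.89 (0.0258), POSTN at -2.48 (0.0138), THBS4 at -2.29 (0.0103) and TGFBI, just past the fold threshold (0.0202). The injected group then had 2 samples, and lower fold changes without its highest sample were bound to follow. FN1 and THBS1 differed little between injected samples, at 308, 413 and 294 FPKM and at 76.3, 90.8 and 71.0 FPKM. Their log2 fold changes from HS with every sample were -0.88 (adjusted p = 0.104) and -0.54 (0.166).

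**Figure D4:**
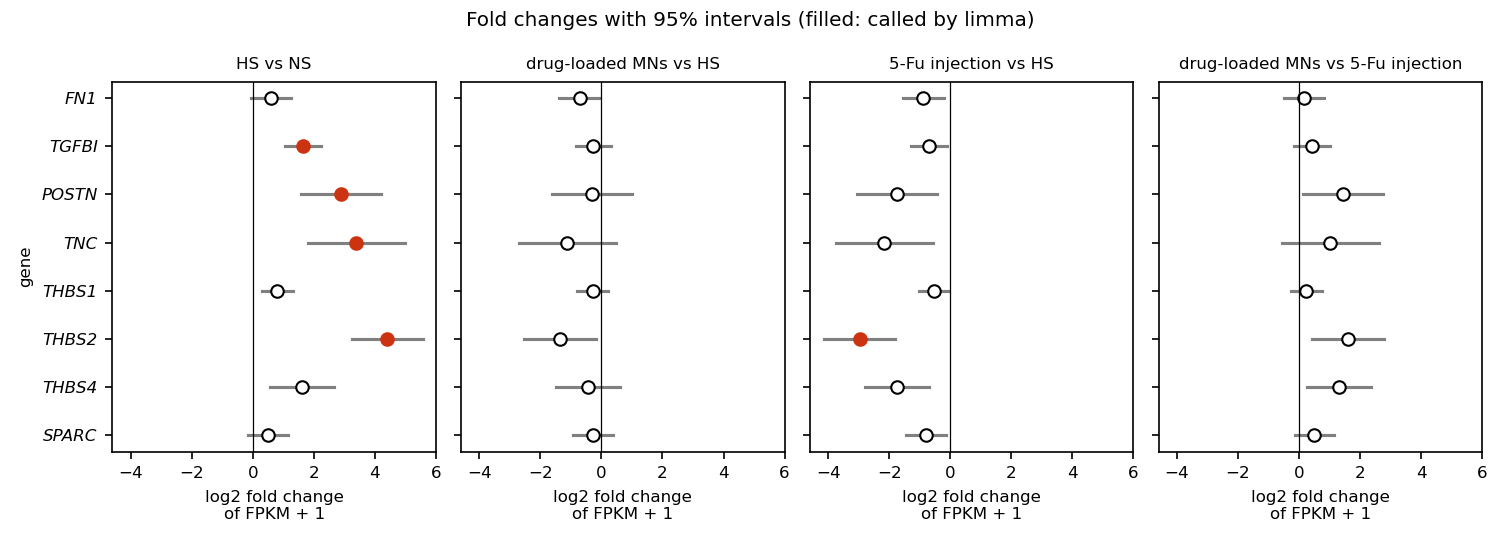
Points are log2 fold changes of FPKM + 1 for the 8 rows in 4 comparisons, bars are the 95% intervals of limma, and filled points passed the test. In HS vs NS, 4 points are filled and in 5-Fu injection vs HS only THBS2; all 8 points lie below 0 in both treatment comparisons with HS and above 0 in drug-loaded MNs vs 5-Fu injection, where none passed.

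Drug-loaded MNs against 5-Fu injection compared the treatments directly. None of the 8 rows passed, nor did any other tested gene (0% called, with 2009 genes at an unadjusted p under 0.05 by limma). Each row had its higher fitted level with drug-loaded MNs, and the median log2 fold change was 0.77 against 0.00 over all tested genes. THBS2 was the 1 of 8 rows in which every microneedle sample, from 187 FPKM up, lay above every injected sample, up to 173 FPKM, while 8.64% of all tested genes had this pattern. Its log2 fold change was 1.60 (95% interval 0.42 to 2.78, adjusted p = 0.261). POSTN at 1.43 (0.12 to 2.74) and THBS4 at 1.31 (0.26 to 2.36) overlapped through injected replicate 2, and TNC at 1.03 (-0.56 to 2.62) through injected replicates 2 and 3. Without injected replicate 2 still 0 of 8 rows passed, with 12 of 13287 tested genes called. The log2 fold changes were then 2.21 for THBS2 (adjusted p = 0.0951), 2.15 for POSTN (0.11), 1.86 for THBS4 (0.108), 1.76 for TNC (0.235) and 0.73 for TGFBI (0.167). FN1, at 0.17 (-0.50 to 0.83), and THBS1, at 0.24 (-0.26 to 0.74), had the narrowest range of values across these groups.

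The treated scars were also set against NS to ask how far each gene was from normal skin. With drug-loaded MNs, THBS2 and TGFBI were still higher than in NS, 2 of 8 rows against 0.873% of all tested genes called and 0.790% called higher. THBS2 had a log2 fold change of 3.05 (SE 0.54, adjusted p = 0.0277) and TGFBI of 1.38 (SE 0.26, adjusted p = 0.0402). POSTN at 2.57 (adjusted p = 0.0829), TNC at 2.26 (0.199) and THBS4 at 1.17 (0.335) did not pass, though their groups did not overlap. In 5 of 8 rows the microneedle samples were all above NS, a pattern of 11.5% of all tested genes. FN1 was at -0.11 (95% interval -0.78 to 0.55). Both calls depended on single libraries. Without NS replicate 1 or 2, or any of the drug-loaded MNs samples, 0 of 8 rows were called, with adjusted p from 0.072 to 0.12 for THBS2 and from 0.0893 to 0.153 for TGFBI. Those fits called 0 to 24 of 13287 tested genes, against 116 with every sample. THBS2 was also lost without NS replicate 3 (0.0657), and TGFBI without HS replicates 1, 2 and 3 (0.0527, 0.0668 and 0.0703). POSTN was called without 5-Fu injection replicate 1 (0.027) or 2 (0.0172).

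With 5-Fu injection, none of the 8 rows passed against NS, with 0.00753% of all tested genes called and 1981 at an unadjusted p under 0.05 by limma. THBS2 (1.45, 95% interval 0.27 to 2.62, adjusted p = 0.265) and TGFBI (0.95, 0.37 to 1.53, adjusted p = 0.182) were the 2 of 8 rows in which every injected sample was above every NS sample, as in 9.60% of all tested genes. The lowest injected THBS2 value was 43.6 FPKM and the highest NS value 36.6 FPKM. Injected replicate 1 lay within or below the NS range in POSTN, TNC and THBS4, while replicate 2 was above it in all of them. Replicate 3 was above that range in POSTN and TNC and below it in THBS4. Without replicate 2 the log2 fold changes from NS were 0.84 for THBS2 (adjusted p = 0.424), 0.64 for TGFBI (0.24), 0.42 for POSTN (0.71), 0.50 for TNC (0.754) and -0.69 for THBS4 (0.457), and 0 of 8 rows passed. A difference that passed against NS in one treatment and not in the other does not show that the treatments differed, and their direct comparison is given above. All comparisons with NS share the NS samples.

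The order of THBS1 and THBS2, related proteins with overlapping receptors, turned with the group. THBS1 exceeded THBS2 in every NS sample, as at 68.7 against 36.6 FPKM in replicate 1. THBS2 exceeded THBS1 in every HS and drug-loaded MNs sample. After injection THBS2 was below THBS1 in replicates 1 and 3, at 43.6 against 76.3 and 52.6 against 71.0 FPKM, and above it in replicate 2, at 173 against 90.8 FPKM.

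Across the 12 samples some members moved together more than others. The Pearson correlation of log2(FPKM + 1) was 0.93 for POSTN and TNC, and 0.83 when each sample was taken relative to its group mean. POSTN and THBS4 had 0.89 and 0.86. TGFBI had 0.90 with POSTN and 0.90 with THBS2, but 0.66 and 0.57 within groups. The lowest correlation over the 12 samples was 0.27, between FN1 and THBS1 (-0.23 within groups). FN1 had its highest with THBS4, at 0.71 (0.68 within groups). THBS1 had its highest with THBS2, at 0.78 (0.26 within groups). All these points share libraries, normalisation and group differences, so the values are descriptions over n = 12.

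Among the tested genes with a symbol, those most like each member over the 12 samples were as follows. For THBS2 they were CDH11, a cadherin of mesenchymal cells, COL5A2, a collagen chain that limits fibril width, and PXDN, a basement membrane peroxidase (each r = 0.99). TNC was most like PGM3 (0.98), MPZL1 (0.97) and LOXL2, a collagen cross-linking enzyme (0.96). POSTN was most like FGF7, a fibroblast growth factor for epithelium (0.96), SLC16A9 (0.95) and COL1A1 (0.95). TGFBI was most like ANGPTL2, ITGA11 and ADAMTS2, the last a procollagen protease (each 0.97). The closest genes were DSEL (0.97), ADGRG2 (0.95) and EMP1 (0.94) for THBS4, MATN4 (0.95), FANCI (0.93) and ZWILCH (0.92) for THBS1, and PACSIN1 (0.93), PPFIBP1 (0.91) and SRPRA (0.90) for FN1. For the SPARC row, which rests on few reads, they were SMIM15 (0.92), PPP4R2 (0.91) and RSPRY1 (0.91).

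Lists of related genes were counted beside the members: other matricellular genes, receptors of matricellular proteins, and genes of matrix assembly and latent TGF-beta. In HS against NS, 7 of 23 tested other matricellular genes were called higher and 0 lower, with a median log2 fold change of 1.00. Of all 13287 tested genes, 469 were called higher (3.53%) and 196 lower, with a median of -0.01. The pair with the largest change were THBS3 and FBLN2. THBS3, a further thrombospondin, had 7.31, 4.28 and 7.88 FPKM in NS and 18.9 to 68.6 FPKM in HS, where replicate 1 was the low sample, a log2 fold change of 2.64 (adjusted p = 0.00538). FBLN2, a fibulin that binds fibronectin, had 49.3, 31.0 and 51.6 FPKM in NS and 600, 157 and 174 FPKM in HS (2.54, adjusted p = 0.00877). As with THBS2, its highest HS value was in replicate 1. CCN1 and CCN2, matricellular genes often taken as readouts of YAP and TGF-beta activity and named here after their values were seen, were at 0.11 (adjusted p = 0.899) and -0.04 (0.958).

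Of 23 tested receptor genes, 3 were called higher and 1 lower in HS, with a median of 0.63. Over all tested genes 3.53% were called higher. ITGA11, the alpha chain of a fibrillar collagen receptor of fibroblasts, had 3.04, 2.07 and 3.15 FPKM in NS and 58.9, 40.7 and 41.0 FPKM in HS. It thus rose by 3.66 on the log2 scale (adjusted p = 0.000748). ROR2, a receptor of WNT5A, rose by 1.86 (0.00518). The other gene called higher was ITGB5, which pairs with ITGAV to bind periostin (1.21, adjusted p = 0.00762), and the lower gene was ITGB8 (-1.41, adjusted p = 0.0061), whose protein pairs with ITGAV to bind latent TGF-beta. ITGAV itself, at 0.82 (0.0411), and ITGB1, at 0.77 (0.0366), were under the fold threshold. ITGA5, which with ITGB1 forms the main fibronectin receptor, was at 0.84 (0.197).

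Among 12 tested genes of matrix assembly and latent TGF-beta, 5 were called higher in HS and 0 lower, with a median of 0.99. The share called higher over all tested genes was 3.53%. TGFB3 had 22.6, 16.4 and 34.7 FPKM in NS against 255, 113 and 101 FPKM in HS (2.55, adjusted p = 0.00339). LOXL2 had 49.1, 37.6 and 63.8 FPKM against 265, 213 and 219 FPKM (2.21, adjusted p = 0.0111). The remaining calls were BMP1 (1.82), a protease of procollagens, and LTBP1 (1.55) and LTBP2 (1.94), latent TGF-beta binding proteins. LOX was at -0.11 (adjusted p = 0.874).

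The same lists were counted under treatment. Against HS, drug-loaded MNs gave 0 calls among 23, 23 and 12 genes, with medians of -0.29, -0.37 and -0.58. Over all tested genes 0.00753% were called in that comparison and none lower, with a median of -0.02. 5-Fu injection gave 4 of 23 other matricellular genes lower (CCN4, SMOC1, FSTL1 and FBLN1), 3 of 23 receptors lower (ITGA11, ITGAV and ROR2) and 4 of 12 assembly genes lower (TGFB2, TGFB3, LTBP1 and LTBP2). None was called higher, and the medians were -0.75, -0.58 and -1.11. Over all tested genes 1.78% were called lower, with a median of 0.02. ITGA11 fell by 1.89 on the log2 scale (adjusted p = 0.0267), from the HS values above to 7.02, 22.7 and 9.94 FPKM, with replicate 2 again the high one. All these list calls were lost when HS replicate 2 or 3 was left out or only the compared groups were fitted, since 0 of all tested genes passed there, and 9 passed without HS replicate 1. Between the treatments, and in 5-Fu injection against NS, 0 genes of the lists were called. In drug-loaded MNs against NS, 0.790% of all 13287 tested genes were called higher and 11 genes lower. Of the lists, THBS3 and ITGA11 were higher (2.43 and 3.08, adjusted p = 0.0291 and 0.0136) and ITGB8 and TGM2 lower (-1.21 and -1.08, adjusted p = 0.0431 and 0.0327). None of these calls held without NS replicate 2, where 0 of all tested genes passed, and without NS replicate 1 no gene was called lower.

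**Figure D5:**
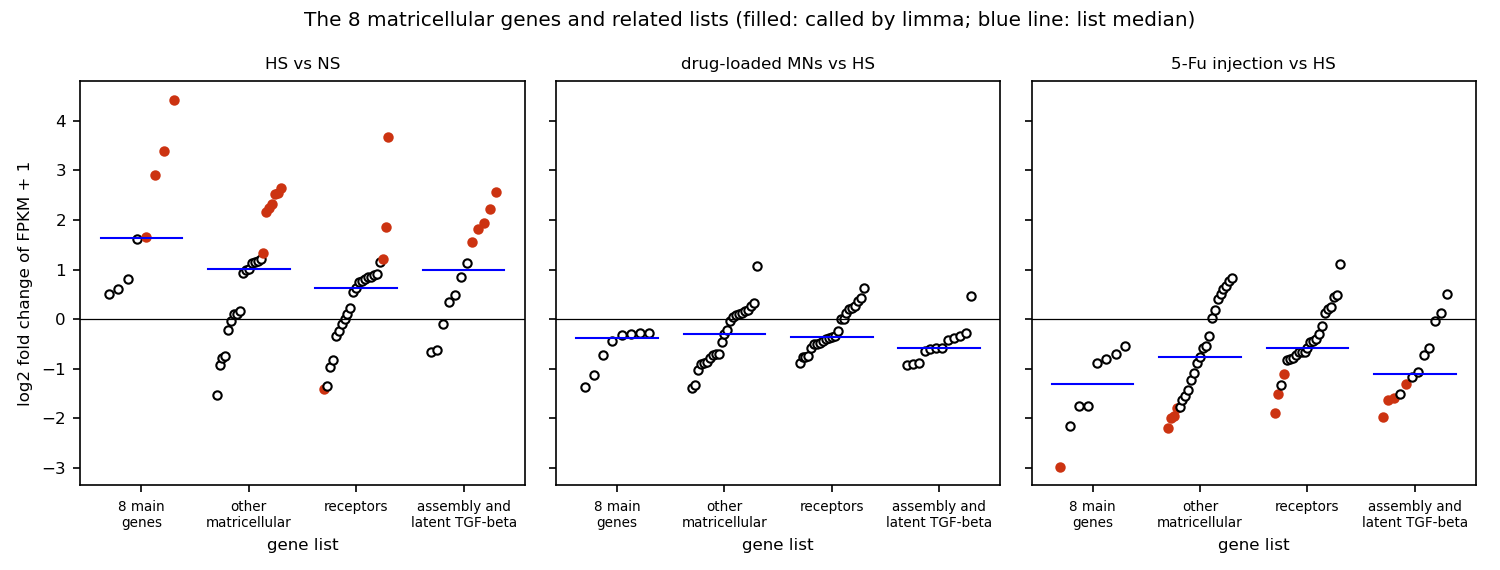
Points are log2 fold changes of FPKM + 1 of the 8 matricellular genes and of the genes of 3 related lists, sorted within each list, in 3 comparisons; filled points passed limma's test and blue lines are list medians. In HS vs NS the medians are 1.62, 1.00, 0.63 and 0.99, and in drug-loaded MNs vs HS no point is filled.

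Most fibroblast markers moved in the direction of the members. Of 8 such markers 6 were matched, and 5 of 6 (DCN, LUM, COL1A1, COL1A2 and COL3A1) were called higher in HS against NS. Over all tested genes 3.53% were called higher. DPT was not called, with means of 31.5 FPKM in NS, 65.6 FPKM in HS, 70.0 FPKM with drug-loaded MNs and 47.5 FPKM with 5-Fu injection. The 6 summed to 2421 to 3401 FPKM in NS and 37301 to 48698 FPKM in HS. With drug-loaded MNs the sum was 18880 to 27113 FPKM, and with 5-Fu injection 4996 to 26692 FPKM. These sums rest mainly on collagen genes, with HS means of 15711 FPKM for COL1A1, 14066 FPKM for COL1A2 and 8262 FPKM for COL3A1. None of the 6 was under 1 FPKM throughout. Of 7 keratinocyte markers 2 were called lower in HS (KRT5 and KRT15), against 196 of all 13287 tested genes. The 7 summed to 3842 to 9082 FPKM with drug-loaded MNs and 2970 to 5580 FPKM with 5-Fu injection. Of 5 proliferation markers 1 was called higher in HS (TOP2A), against 3.53% of all tested genes. The 5 summed to 17.8 to 32.7 FPKM in NS and 37.9 to 47.6 FPKM in HS. The sum was 29.1 to 66.8 FPKM with drug-loaded MNs and 25.9 to 63.1 FPKM with 5-Fu injection. In bulk tissue, fewer cells of a type and less RNA per cell cannot be told apart, and the part of these cell types in the fold changes of the 8 rows was not tested.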

How the data were processed

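Bulk RNA-seq of rabbit ear was analysed for 12 samples, grouped by their labels (4 groups of 3). The authors deposited FPKM values per gene, with the aligner, counter and genome build not given in the sources used here. Multiplied by gene length, the deposited FPKM values were whole multiples of a step per sample (100% within 0.1 of a whole number), so reads could be counted back. Sequences were not printed.

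Differences were tested with limma 3.58.1 in R 4.3.3 on log2(FPKM + 1), in 1 model of 4 groups with a mean-variance trend, for the 13287 genes averaging 1 FPKM or more. Fold changes on this scale understate changes of low genes. P-values were adjusted by Benjamini-Hochberg within each of 6 comparisons, and a call required both an adjusted p under 0.05 and a log2 fold change beyond 1 in either direction. The code was tested on simulated data. The authors used DESeq2 on counts; here the reads counted back entered only limma voom, as an alternative.

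The members and lists were chosen with earlier results of these data known. Named genes are the 9 members in all comparisons, per related list the 2 genes with the largest absolute fold change in HS against NS and those needed to describe receptors and processing of a member, and the 3 most correlated genes of each member. Genes lacking a symbol were matched by description for 14 list genes. The results of 1 further marker list are not reported here.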

Additional observations from a re-analysis of the deposited data

How the results depend on the processing

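Each of 48 fold changes (8 rows, 6 comparisons) and each count of rows called was recomputed under other pseudocounts, filters, scalings, models and with each sample left out. In part of these settings, such as another filter or a sample left out of a group not compared, the fold change was fixed. Its direction could not reverse there, and only the adjusted p could change. Of 1098 recomputed fold changes, 1049 kept their direction and side of the threshold, 33 no longer passed, 10 newly passed and 6 reversed. The cause of these shifts was not tested. The reversals were all of small changes with a sample left out: FN1 in drug-loaded MNs against 5-Fu injection (range -0.028 to 0.37), FN1 in drug-loaded MNs against NS (-0.33 to 0.088), and THBS4 (-0.69 to 0.22) and SPARC (-0.51 to 0.024) in 5-Fu injection against NS.

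With single samples left out, the number of the 8 rows called ranged from 2 to 5 in HS against NS, from 0 to 5 in 5-Fu injection against HS and from 0 to 3 in drug-loaded MNs against NS, and it was 0 throughout in the other comparisons. In the same fits the calls over all 13287 tested genes ranged from 382 to 749, from 0 to 803 and from 0 to 176 in these 3 comparisons. With only the compared groups in the fit, 0 rows were called in 5-Fu injection against HS and 4 in drug-loaded MNs against NS. Those fits called 0 and 138 of all tested genes. In drug-loaded MNs against NS 0 rows were called with no filter on low values, where 51 of 21417 genes passed, and 1 after rescaling to total reads. Rescaling moved the calls over all tested genes from 68 higher and 236 lower to 125 and 160 in 5-Fu injection against HS, from 105 and 11 to 66 and 20 in drug-loaded MNs against NS, and from 1 and 0 to 2 and 2 in 5-Fu injection against NS. It shifted the median of all tested genes to -0.19 in both treatments against NS, and to 0.11 and 0.13 in drug-loaded MNs and 5-Fu injection against HS. Replicate numbers do not link animals, and the deviations of same-numbered samples correlated at -0.27 to 0.44. With the replicate number as a block, 0 rows were called in drug-loaded MNs against NS and 4 in HS against NS, and the pairing was not used. Reading SPARC from the overlapping ATOX1-named row, an alternative chosen after seeing the data, gave 5 rows called in HS against NS.

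With 3 samples per group the intervals are wide. The labels give 3 rabbits per group without tying each sample to a rabbit, so p-values measure the spread between these samples. The SPARC row is limited by its 12 to 71 reads.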
